A study of Mus musculus with 12 samples.

Results

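Lymph nodes of mice carrying B16F10 melanoma, a mouse melanoma cell line, were compared by RNA-seq after inhibition of the pain-sensing (nociceptive) nerves that supply the tumour-draining node. The T NDE group holds 3 nodes from mice with B16F10 cells put in the tongue and with those nerves inhibited. The T NC group holds 3 nodes from mice with the same tumour cells and without nerve inhibition. These 6 libraries were taken by their group labels from the 12 libraries of the series; the other 6 come from mice without tumour cells, with (NT NDE) and without (NT NC) nerve inhibition, and entered the same fit; their values are given only where a list or gene is set beside its value in tumour-free mice. The labels call the nodes premetastatic and the replicates biologically independent. They do not say how the nerves were inhibited, what strain or age the mice were, or whether a library is 1 mouse or a pool, so none of these can be compared between the groups. Values are CPM, each gene's share of its library's counts, after TMM scaling, which adjusts for library composition, and 3 values of a group are always in the order of replicates 1, 2 and 3.

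A lymph node draining a tumour receives its lymph, antigens and migrating dendritic cells. Nociceptive fibres enter nodes, mainly around the capsule, and release neuropeptides such as CGRP and substance P that act on stromal and immune cells. Naive alpha beta T cells and B cells make up most of the node. Small populations stand beside them, among them gamma delta T cells programmed to make interleukin 17, neutrophils, sinus macrophages and the fibroblastic and endothelial stroma. In whole-node RNA, fewer cells of a type and less RNA per cell cannot be told apart.

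No gene passed the test between T NDE and T NC nodes. Of 55487 genes in the count table, 17301 had enough counts to be tested, and edgeR's quasi-likelihood test with Benjamini-Hochberg adjustment called 0 of them (0%) at an adjusted p under 0.05, with a smallest adjusted p of 0.149. At an unadjusted p under 0.05 there were 1008 genes, 476 higher in T NDE nodes (2.75% of those tested) and 532 lower (3.07%). With DESeq2 the number was 44, of which 23 were higher (0.133%) and 21 lower (0.122%). With limma-voom it was 0. The 23 include 3 genes of a salivary gland list, Bpifa2, Cst10 and Dcpp1, which were highest in T NDE replicate 3, described below. Crisp1, Chia1 and 2310057J18Rik, which are not on that list, were also among the 23. Their DESeq2 log2 fold changes were 8.62, 8.28 and 8.54, against 8.56 for Bpifa2. DESeq2 was not run without T NDE replicate 3. In 787 genes (4.55%) every T NDE node lay above every T NC node, and in 795 (4.60%) every T NDE node lay below. The median log2 fold change over all tested genes was 0.01. These p-values set each difference against a spread between samples that is estimated from all 12 libraries. As no gene passed edgeR's test, every gene below is given as values, and "higher" and "lower" state only the direction of the fitted value.

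The 6 libraries held 16862953 to 24467873 counts. Lymphocyte markers were present in all 6: Cd3e, of T cells, had 108, 97.9 and 92.2 CPM in T NDE nodes, against 108, 108 and 96.3 CPM in T NC nodes, and Ighm, the heavy chain of IgM in B cells, had 2409.8, 2645 and 2592 CPM in T NDE nodes, against 3382, 2343 and 2844 CPM in T NC nodes. One library stood apart. T NDE replicate 3 carried transcripts of the salivary gland, which lies next to the nodes of the neck: genes of a salivary list took 4.26% of its counts, against 0.00264% to 0.00718% in the other 5 libraries. Bpifa2, a secreted protein of the parotid gland, had 15.8, 25.9 and 26332 CPM in T NDE nodes, against 9.41, 22.3 and 38.0 CPM in T NC nodes. In a principal component analysis of the 6 libraries, the first component held 42.6% of the variance and set this library off from the others. Of the tested genes at 1 CPM or more, 65 were over 10-fold higher in this library than in any of the other 5, against 0 to 2 such genes for each of the others. Results are therefore also given without T NDE replicate 3. In that fit 17645 genes were tested, 0 passed (smallest adjusted p 0.244 by edgeR's quasi-likelihood test), 1052 had an unadjusted p under 0.05, 1789 (10.1%) lay wholly above and 1874 (10.6%) wholly below. Among the libraries without tumour, NT NC replicates 2 and 3 also carried salivary transcripts, at 0.158% and 3.07% of their counts. Together with T NDE replicate 3 they are called the salivary libraries below. Every value for tumour-free mice and every interaction p below uses both NT NC libraries and is not given without them.

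**Figure D1:**
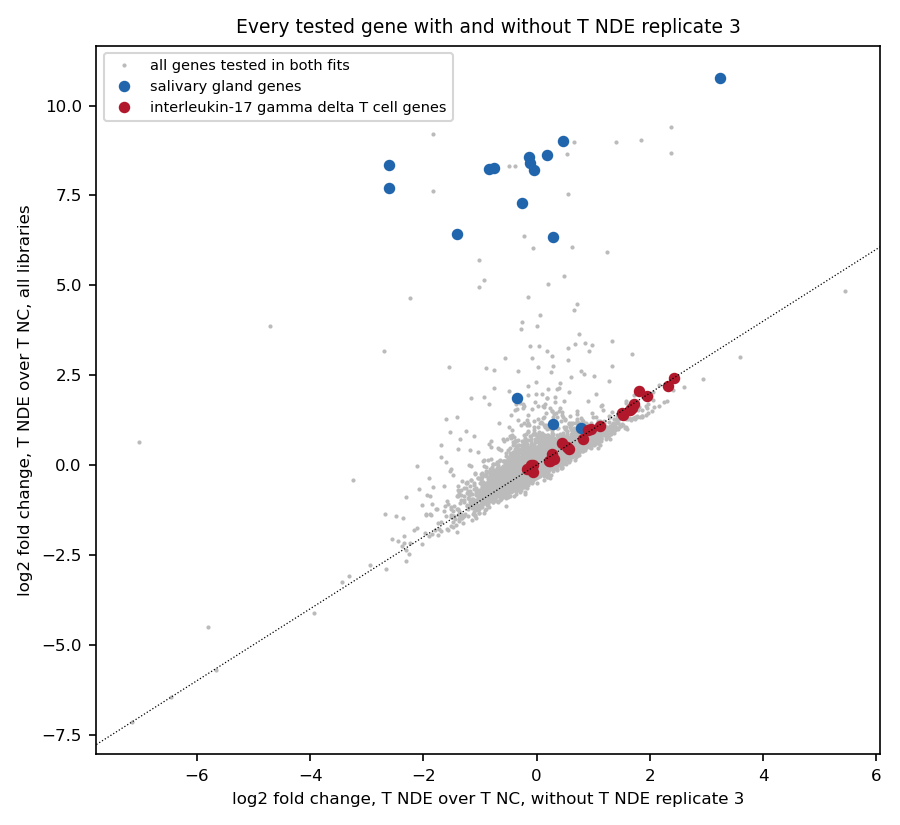
Each grey point is 1 of the 17301 tested genes, with its log2 fold change of T NDE over T NC from the fit without T NDE replicate 3 on the x axis and from all libraries on the y axis. Points on the dotted line have the same value in both; most salivary gland genes (blue) lie far above it, with a median of 8.23 on the y axis and -0.12 on the x axis, and interleukin-17 gamma delta T cell genes (red) lie near it.

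Most genes of interleukin-17-producing gamma delta T cells were higher in T NDE nodes. These cells carry a T cell receptor of gamma and delta chains, leave the thymus already committed to making interleukin 17, and in mice include a Vgamma6 and a Vgamma4 subset. Of 25 genes on the list, 24 were tested. The cytokine gene Il17a had too few counts to be tested. The median log2 fold change was 0.85, against 0.01 over all genes, and 21 of the 24 were positive. In 14 of 24 every T NDE node lay above every T NC node, against 4.55% of all genes, and in 0 every T NDE node lay below. Under DESeq2, 8 of the 24 were called higher, against 0.133% of all genes. Without T NDE replicate 3 the median was 0.87 and 15 did not overlap, against 10.1% of all genes. With antigen receptor genes left out, the median of the remaining members was 0.48. None passed edgeR's quasi-likelihood test in either fit.

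The 6 receptor genes on the list all had log2 fold changes above 1. Tcrg-V6, the variable segment of the Vgamma6 chain (mm10 chr13:19190356-19190929, plus strand), had 3.73, 1.62 and 2.51 CPM in T NDE nodes, against 0.450, 0.693 and 0.296 CPM in T NC nodes. Its log2 fold change was 2.41 ± 0.42 (SE), with an adjusted p of 0.185 by edgeR's quasi-likelihood test. The lowest T NDE node was above the highest T NC node. Trdc, the constant region of the delta chain (chr14:54142851-54148868, plus strand), had 53.2, 20.2 and 28.7 CPM in T NDE nodes, against 14.9, 10.6 and 8.47 CPM in T NC nodes. Its log2 fold change was 1.57 ± 0.36 (SE), and its adjusted p was 0.607 by edgeR's quasi-likelihood test. T NDE replicate 1 stood well above the other nodes, and the groups did not overlap. Tcrg-V4, the Vgamma4 segment, had 5.27, 1.62 and 2.85 CPM in T NDE nodes, against 1.60, 1.06 and 0.888 CPM in T NC nodes, where T NDE replicate 2 cleared T NC replicate 1 only narrowly. Trdv4, a delta variable segment, had 9.82, 2.79 and 5.66 CPM in T NDE nodes, against 2.41, 1.62 and 0.711 CPM in T NC nodes. The constant genes Tcrg-C1 and Tcrg-C2 had log2 fold changes of 1.71 and 1.38; they are near-identical copies, so their counts may be shared between them. For Trdc, 207 exon bases overlap the opposite-strand segment Trdv5 and 96 overlap Gm43434, and since the strand setting is not known, reads there cannot be assigned to 1 gene.

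Transcription factors of the lineage had positive values too. Sox13, a factor that directs gamma delta T cells toward interleukin 17 (chr1:133382303-133424377, minus strand), had 19.0, 12.1 and 16.7 CPM in T NDE nodes, against 7.77, 8.68 and 7.40 CPM in T NC nodes. The log2 fold change was 1.00 ± 0.17 (SE) and the adjusted p 0.185 by edgeR's quasi-likelihood test. All 3 T NDE nodes lay above all 3 T NC nodes. Maf, needed for interleukin 17 expression in these cells, had 138, 126 and 142 CPM in T NDE nodes, against 108, 113 and 106 CPM in T NC nodes. Its shift was small, at 0.31 ± 0.06 (SE) on the log2 scale, with no overlap; 440 of its exon bases overlap the opposite-strand Gm15655. Zbtb16, which encodes PLZF, a factor of innate-like T cells, had 8.01, 3.60 and 6.62 CPM in T NDE nodes, against 2.54, 3.05 and 3.67 CPM in T NC nodes, and its groups overlapped between T NDE replicate 2 and T NC replicate 3.

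Surface and effector genes of these cells were split. Cd163l1, a scavenger receptor found on mouse gamma delta T cells that make interleukin 17 (chr7:140218267-140231145, plus strand), had 129, 38.8 and 60.7 CPM in T NDE nodes, against 19.2, 17.2 and 13.2 CPM in T NC nodes. The fitted log2 fold change was 2.19 ± 0.47 (SE), and the lowest T NDE node was above the highest T NC node. The related 5830411N06Rik had 65.3, 18.9 and 30.9 CPM in T NDE nodes, against 15.6, 12.1 and 12.2 CPM in T NC nodes, again highest in T NDE replicate 1. Il23r, the receptor chain for interleukin 23, had 5.54, 3.20 and 3.43 CPM in T NDE nodes, against 2.58, 2.26 and 2.55 CPM in T NC nodes, without overlap. Kcnk1, a potassium channel gene, had 4.77, 2.43 and 5.42 CPM in T NDE nodes, against 1.06, 0.970 and 1.01 CPM in T NC nodes, a log2 fold change of 2.05 ± 0.38 (SE). Here the T NC nodes were close together and T NDE replicate 2 was the lowest T NDE node. Il17f, the only interleukin 17 gene of the list that was tested, was near 1 CPM, with 1.26, 1.37 and 1.79 CPM in T NDE nodes, against 1.06, 0.924 and 0.888 CPM in T NC nodes. Cxcr6, a chemokine receptor of tissue-homing T cells, had 46.6, 27.0 and 28.5 CPM in T NDE nodes, against 32.1, 21.6 and 20.3 CPM in T NC nodes, and Ltb4r1, the leukotriene B4 receptor, had 7.74, 2.99 and 4.93 CPM in T NDE nodes, against 4.17, 3.28 and 3.55 CPM in T NC nodes. Some other members had smaller values. Blk, a kinase of B cells and gamma delta T cells, had a log2 fold change of 0.12 ± 0.13 (SE). Ccr6, a chemokine receptor shared with B cells, had 0.16 ± 0.17 (SE), and Il1r1, the interleukin 1 receptor, 0.01 ± 0.11 (SE). The 3 members with a negative value were Tmem176a at -0.10, Tmem176b at -0.01 and Serpinb1a at -0.19.

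The level of these genes varied within the T NDE group. T NDE replicate 1 was the highest of the 6 nodes for 16 of the 24 genes, and T NC replicate 3 was the lowest for 14. Without T NDE replicate 1 the list median was 0.71. Trac and the T cell identity genes had the other sign. Trac, the constant region of the alpha chain, had 153, 158 and 145 CPM in T NDE nodes, against 194, 194 and 160.3 CPM in T NC nodes, and all 16 T cell identity genes had a negative value, with a median of -0.18. That list holds alpha beta receptor genes and also general T cell genes such as Cd3e, so it is not particular to alpha beta T cells. In nodes of mice without tumour cells the gamma delta list had a median of -0.02 for NT NDE over NT NC. The test of the difference between the responses with and without tumour passed for 0 of 17301 genes (smallest adjusted p 0.321 by edgeR's quasi-likelihood test; 1230 at an unadjusted p under 0.05). For Tcrg-V6 the adjusted interaction p was 0.462 and for Trdc 0.624, so no difference between tumour-bearing and tumour-free mice passed.

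**Figure D2:**
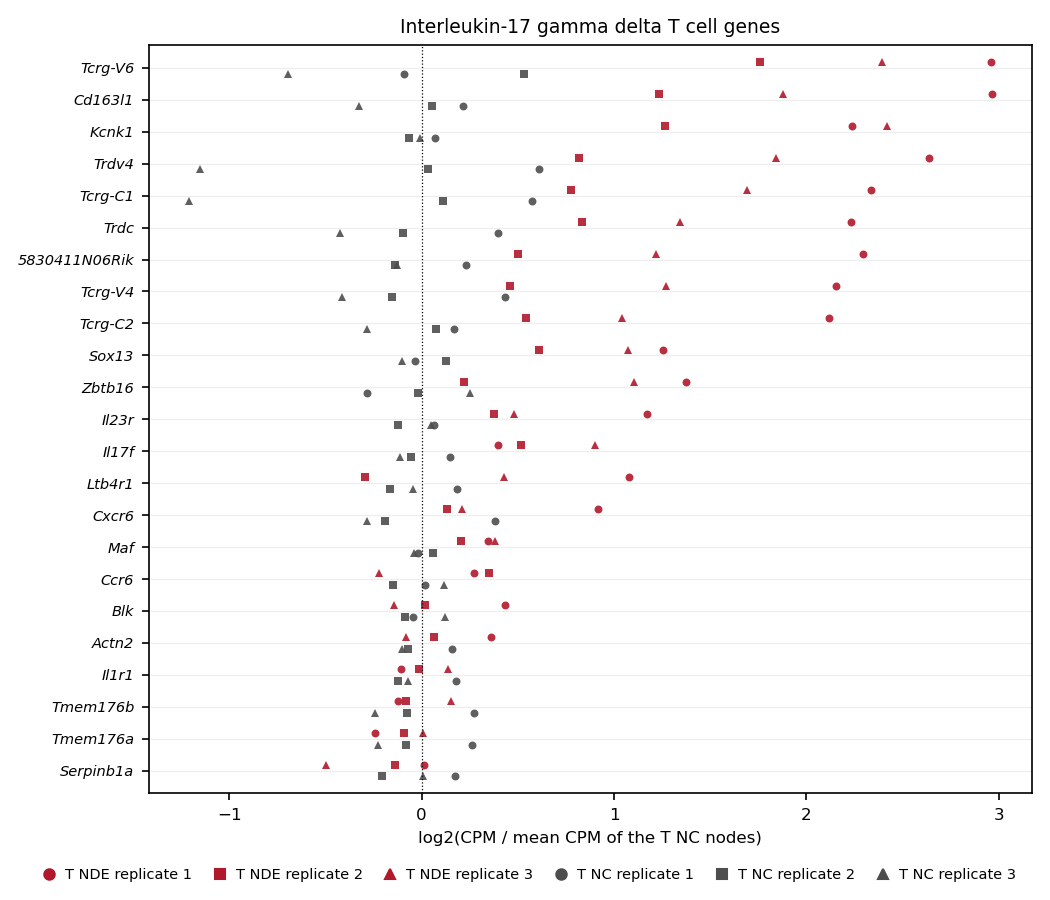
Each row is 1 of 23 of the 24 tested interleukin-17 gamma delta T cell genes, sorted by log2 fold change; the x axis is log2 of the gene's CPM over the mean CPM of the T NC nodes. Red marks are T NDE nodes and grey marks T NC nodes, with the mark's shape giving the replicate; in 13 rows all red marks lie right of all grey marks, and T NDE replicate 1 (circle) is the rightmost in 15.

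The gene with the smallest p of all was Il9r, the interleukin 9 receptor (chr11:32187541-32200279, minus strand). It had 75.05, 71.3 and 70.4 CPM in T NDE nodes, against 42.8, 47.7 and 49.0 CPM in T NC nodes. On the log2 scale the difference was 0.64 ± 0.10 (SE) and its adjusted p 0.149 by edgeR's quasi-likelihood test and 2.96e-05 by DESeq2. The T NDE nodes lay close to each other and above all T NC nodes, and without T NDE replicate 3 the log2 fold change was 0.65. Its partner chain Il2rg, the common gamma chain, had 130.2, 121 and 115 CPM in T NDE nodes, against 124, 127 and 127 CPM in T NC nodes, with overlap. The 12 genes of interleukin 9 and common gamma chain signalling had a median of -0.07, with 1 wholly higher and 1 wholly lower, against 4.55% and 4.60% of all genes. Spock2, an extracellular proteoglycan, had 13.002, 9.43 and 12.4 CPM in T NDE nodes, against 6.05, 6.33 and 6.81 CPM in T NC nodes. Arnt2, a bHLH-PAS transcription factor, had 14.4, 8.67 and 9.43 CPM in T NDE nodes, against 5.48, 4.76 and 5.68 CPM in T NC nodes. In both the groups were apart, with log2 fold changes of 0.86 ± 0.16 (SE) and 1.03 ± 0.20 (SE). Col13a1, a transmembrane collagen, had 2.91, 2.99 and 4.30 CPM in T NDE nodes, against 1.47, 1.29 and 1.78 CPM in T NC nodes, with T NDE replicate 3 the highest. Slc7a1, a transporter of cationic amino acids, had 96.8, 97.1 and 96.7 CPM in T NDE nodes, against 74.9, 84.2 and 82.1 CPM in T NC nodes, a small difference of 0.27 ± 0.06 (SE) on the log2 scale. The remaining genes among the 15 higher with the smallest p were Tdrd9 (1.73), Btnl9 (0.79), Flt1 (0.56), Fgfr3 (0.61), Myo6 (0.41) and the long noncoding RNA Miat (1.59), all as log2 fold changes and all without overlap.

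Interferon-stimulated genes were lower in T NDE nodes, with T NC replicate 3 far above the other nodes. Type I interferons act through a complex that holds STAT2 and IRF9 and binds an interferon-stimulated response element; interferon gamma acts through a GAS element. Promoters of 4 genes are shown because genes of this kind are known targets of these elements' factors. Each window runs from 250 bases before to 50 after the start of a RefSeq transcript (build GRCm38.p6). Capitals mark matches, on either strand, to GAAANNGAAA (the core of the response element) or to TTCNNNGAA (the GAS core). Ifit1 lies at chr19:34640639-34640938 (plus strand), Isg15 at chr4:156200769-156201068 (minus strand), Oas1a at chr5:120907476-120907775 (minus strand) and Igtp at chr11:58199306-58199605 (plus strand).
Ifit1: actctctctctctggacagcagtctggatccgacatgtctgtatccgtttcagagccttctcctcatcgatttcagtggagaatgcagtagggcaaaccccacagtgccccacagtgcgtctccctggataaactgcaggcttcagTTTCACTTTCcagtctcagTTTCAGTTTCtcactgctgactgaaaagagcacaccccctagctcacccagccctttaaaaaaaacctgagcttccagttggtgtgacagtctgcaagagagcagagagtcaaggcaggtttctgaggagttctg
Isg15: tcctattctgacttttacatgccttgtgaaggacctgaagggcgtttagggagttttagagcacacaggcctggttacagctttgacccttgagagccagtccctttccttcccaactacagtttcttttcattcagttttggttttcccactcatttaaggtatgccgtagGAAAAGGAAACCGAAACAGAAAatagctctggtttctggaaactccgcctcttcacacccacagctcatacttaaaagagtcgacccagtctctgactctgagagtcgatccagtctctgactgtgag
Oas1a: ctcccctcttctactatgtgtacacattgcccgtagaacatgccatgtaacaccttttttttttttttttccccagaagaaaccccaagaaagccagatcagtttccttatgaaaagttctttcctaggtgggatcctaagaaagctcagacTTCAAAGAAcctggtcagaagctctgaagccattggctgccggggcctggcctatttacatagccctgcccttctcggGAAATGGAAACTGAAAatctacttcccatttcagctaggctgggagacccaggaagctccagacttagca
Igtp: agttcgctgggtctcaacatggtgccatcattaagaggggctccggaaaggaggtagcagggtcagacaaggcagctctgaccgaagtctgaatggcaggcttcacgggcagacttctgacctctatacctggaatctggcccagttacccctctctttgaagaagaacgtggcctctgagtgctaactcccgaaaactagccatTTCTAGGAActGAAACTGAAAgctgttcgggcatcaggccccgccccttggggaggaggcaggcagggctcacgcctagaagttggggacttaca
The first motif was in 3.44% of all 32851 windows, in 13 of the 21 windows of type I interferon effectors and in 9 of the 11 windows of the interferon gamma GTPases. The second was in 8.30% of all windows, in 3 of the 21 and in 6 of the 11. A match describes these letters and not a bound site.

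Of the 24 type I interferon effectors, many of which block viral entry, translation or replication, all 24 had a negative log2 fold change, with a median of -0.76. In 14 every T NDE node lay below every T NC node, against 4.60% of all genes. T NC replicate 3 was the highest of the 6 nodes for all 24, and without it the median was -0.38. Without T NDE replicate 3 it was -0.70, with 14 wholly lower, against 10.6% of all genes in that fit. Ifit1, which binds viral RNA, had 8.503, 13.1 and 9.57 CPM in T NDE nodes, against 17.2, 21.3 and 50.7 CPM in T NC nodes. T NDE over T NC gave a log2 fold change of -1.51 ± 0.41 (SE) and its adjusted p 0.705 by edgeR's quasi-likelihood test. T NC replicate 3 stood far above the rest, and the other T NC nodes were still above the T NDE nodes; without T NC replicate 3 the log2 fold change was -0.90. Isg15, a ubiquitin-like modifier, had 12.8, 15.9 and 8.70 CPM in T NDE nodes, against 16.8, 17.5 and 40.2 CPM in T NC nodes. The groups were apart, but T NDE replicate 2 and T NC replicate 1 were close together. Oas1a, which makes the activator of RNase L, had 12.6, 11.6 and 10.3 CPM in T NDE nodes, against 17.1, 16.0 and 25.3 CPM in T NC nodes; its near-identical relative Oas1g may share its reads. Ifit1bl1, a member of the IFIT family, had 24.03, 26.5 and 23.5 CPM in T NDE nodes, against 40.1, 34.4 and 56.7 CPM in T NC nodes. It was the 1 of 24 genes of this list that DESeq2 called, against 0.122% of all genes called lower. Its adjusted p was 0.0173 by DESeq2. Ifit3 and Ifit3b, at -1.42 and -1.62, are near-identical copies. Rsad2, Oas2, Cmpk2 and Herc6 overlapped between the groups, with log2 fold changes of -1.37, -0.54, -0.73 and -0.08.

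Upstream of these effectors the shifts were smaller. The 16 interferon sensors and transcription factors had a median of -0.20, with 5 wholly lower (4.60% of all genes were), and of -0.076 without T NC replicate 3. Irf7, which amplifies the type I response, had 73.2, 72.1 and 63.3 CPM in T NDE nodes, against 86.1, 88.9 and 190.4 CPM in T NC nodes. Ifih1, which encodes the RNA sensor MDA5, had 30.0, 28.9 and 29.1 CPM in T NDE nodes, against 38.0, 33.0 and 51.6 CPM in T NC nodes. Zbp1, a sensor of Z-form nucleic acid, had 56.9, 62.1 and 44.4 CPM in T NDE nodes, against 67.5, 84.7 and 120.1 CPM in T NC nodes. In these 3 genes the T NDE nodes lay below the T NC nodes. The receptor chains Ifnar1 and Ifngr1 had log2 fold changes of -0.02 ± 0.05 (SE) and 0.02 ± 0.08 (SE), with overlap.

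The 17 interferon gamma GTPases, which attack vacuoles that hold intracellular pathogens, all had negative values, with a median of -0.35 and 5 wholly lower, against 4.60% of all genes. T NC replicate 3 was the highest for 16 of 17, and without it the median was -0.21. Without T NDE replicate 3 it was -0.41. Gbp2, a guanylate-binding protein, had 59.4, 72.2 and 74.5 CPM in T NDE nodes, against 85.7, 89.4 and 96.3 CPM in T NC nodes. Gbp6 had 7.35, 8.72 and 7.69 CPM in T NDE nodes, against 9.45, 12.01 and 14.1 CPM in T NC nodes. In both the groups were apart. Igtp, an immunity-related GTPase, had 52.6, 71.5 and 52.3 CPM in T NDE nodes, against 65.5, 85.9 and 97.0 CPM in T NC nodes, where T NDE replicate 2 lay above T NC replicate 1. Tgtp1 and Tgtp2, at -0.50 and -0.61, are near-identical copies, and the guanylate-binding protein genes also share sequence.

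Chemokines induced by interferon gamma, and their receptor, also had negative values. Cxcl9, which draws activated T cells, had 24.6, 28.7 and 30.7 CPM in T NDE nodes, against 45.9, 42.3 and 78.5 CPM in T NC nodes. This is a log2 fold change of -0.99 ± 0.25 (SE), and no T NDE node reached a T NC node. Cxcl10 had 7.63, 11.1 and 7.11 CPM in T NDE nodes, against 14.0, 14.0 and 50.9 CPM in T NC nodes, with T NC replicate 3 again far above; without that node its log2 fold change was -0.71, against -1.60 with it. Cxcr3, their receptor on effector T cells and NK cells, had 19.5, 20.8 and 18.4 CPM in T NDE nodes, against 29.9, 23.7 and 24.8 CPM in T NC nodes. The fitted log2 fold change was -0.42 ± 0.11 (SE), and here T NC replicate 1 was the highest node. Without T NDE replicate 3 these 3 had log2 fold changes of -1.06, -1.47 and -0.38.

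MHC class I genes, also interferon targets, were all slightly lower: the 14 members had a median of -0.15, with 4 wholly lower (4.60% of all genes were), and of -0.096 without T NC replicate 3. B2m, the light chain of class I molecules, had 1611, 1652 and 1679 CPM in T NDE nodes, against 2039.7, 1738 and 1913 CPM in T NC nodes. Psmb8, an immunoproteasome subunit, had 274, 279 and 246 CPM in T NDE nodes, against 311, 290.0 and 319.6 CPM in T NC nodes. In both the groups were apart. H2-T22, a nonclassical class I gene whose product is a ligand of some mouse gamma delta T cells, had 168, 163 and 154 CPM in T NDE nodes, against 202, 191 and 208 CPM in T NC nodes, a log2 fold change of -0.31 ± 0.06 (SE); 1003 of its exon bases overlap the opposite-strand A930015D03Rik. The 10 MHC class II genes had a median of -0.02, and in none did the groups separate. In tumour-free mice the type I effectors had a median of -0.76 for NT NDE over NT NC and the GTPases -0.35, while the Cxcr3 chemokines and receptor had -0.03, the sensors and transcription factors -0.20, MHC class I -0.06 and MHC class II 0.05. For Ifit1 the interaction p was 0.877, unadjusted, and the adjusted value 0.986 by edgeR's quasi-likelihood test.

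**Figure D3:**
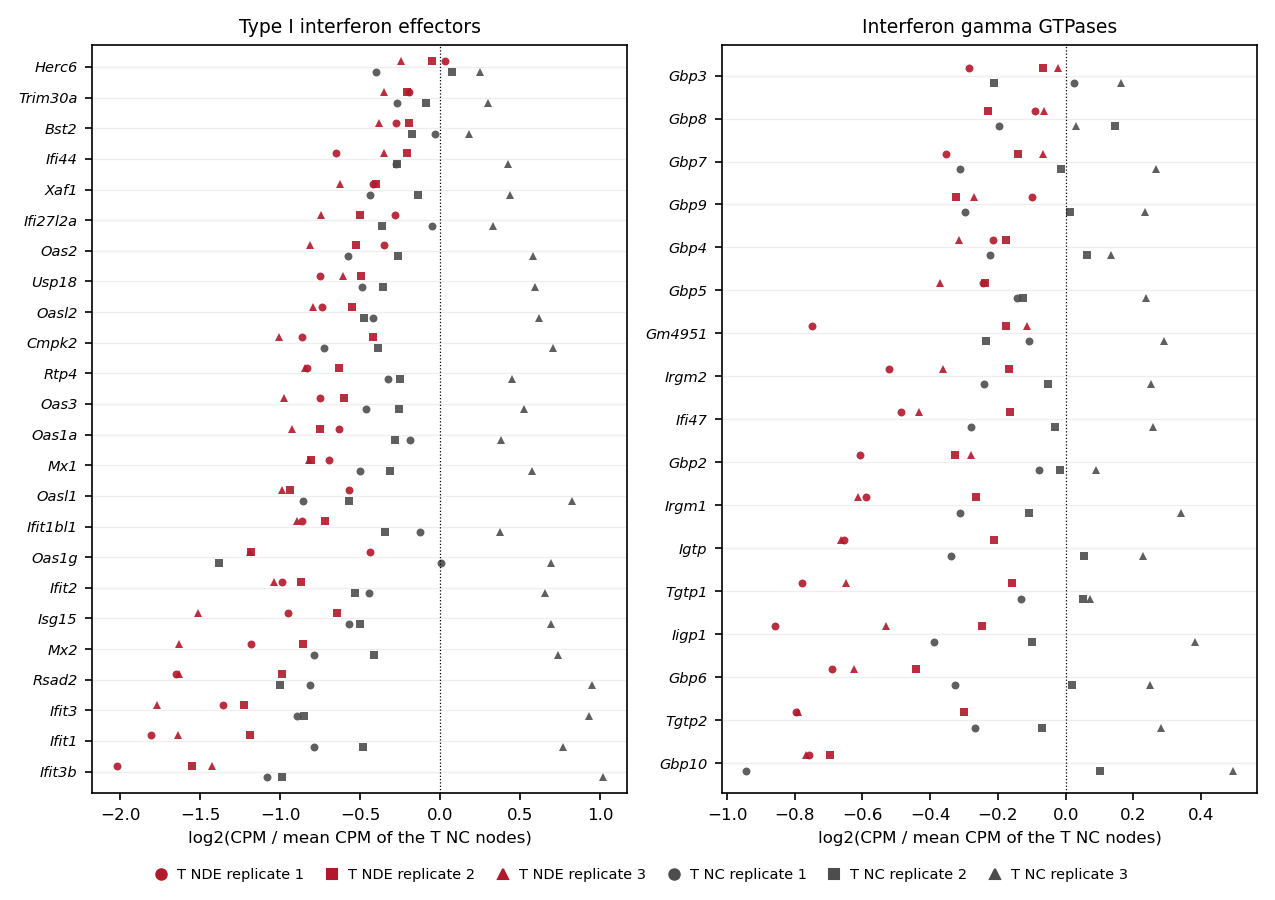
Rows are the 24 type I interferon effectors (left) and the 17 interferon gamma GTPases (right), sorted by log2 fold change; the x axis is log2 of CPM over the mean CPM of the T NC nodes. Red marks are T NDE nodes and grey marks T NC nodes; the grey triangle, T NC replicate 3, is the rightmost mark in 24 of the 24 rows on the left and 16 of 17 on the right.

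Most neutrophil granule genes were lower in T NDE nodes. Neutrophils store antimicrobial proteins in granules that are filled in sequence as the cell matures in bone marrow. The 19 tested genes had a median log2 fold change of -0.90, and in 11 every T NDE node lay below every T NC node, against 4.60% of all genes; DESeq2 called 3 lower, against 0.122% of all genes. Without T NDE replicate 3 the median was -0.93 and 13 did not overlap, against 10.6% of all genes. Without T NC replicate 3, the highest node for 12 of the 19, the median was -0.69. None passed edgeR's quasi-likelihood test.

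Among primary granule genes, Elane, neutrophil elastase, had 0.878, 2.74 and 1.31 CPM in T NDE nodes, against 4.54, 6.74 and 6.39 CPM in T NC nodes. Prtn3, proteinase 3, had 1.21, 1.88 and 1.79 CPM in T NDE nodes, against 5.07, 9.65 and 7.16 CPM in T NC nodes. Mpo, myeloperoxidase, had 1.32, 6.90 and 5.03 CPM in T NDE nodes, against 9.16, 18.8 and 12.3 CPM in T NC nodes. In these 3 the groups did not overlap, and Mpo was the most uneven, with T NDE replicate 1 far below the other T NDE nodes; 159 exon bases of Prtn3 overlap the opposite-strand Plppr3. Ms4a3, expressed in granulocyte progenitors, had 0.165, 0.710 and 0.290 CPM in T NDE nodes, against 1.19, 2.63 and 1.66 CPM in T NC nodes. Prtn3 and Ms4a3 are not on the neutrophil list and are named for their small p.

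Secondary granule genes followed. Lcn2, which withholds iron from bacteria (chr2:32384633-32388252, minus strand), had 18.8, 12.98 and 14.5 CPM in T NDE nodes, against 21.6, 30.3 and 38.9 CPM in T NC nodes. On the log2 scale the difference was -0.97 ± 0.23 (SE) and its adjusted p 0.580 by edgeR's quasi-likelihood test. T NDE replicate 1 was just below T NC replicate 1, and the others were further apart. Camp, the cathelicidin peptide, had 10.6, 6.64 and 8.32 CPM in T NDE nodes, against 12.4, 25.2 and 30.3 CPM in T NC nodes. Ngp, neutrophilic granule protein, had 43.8, 27.3 and 33.5 CPM in T NDE nodes, against 50.7, 88.8 and 97.2 CPM in T NC nodes. In both T NC replicate 1 was the lowest T NC node. Ltf, lactoferrin, had 34.1, 19.3 and 21.999 CPM in T NDE nodes, against 29.0, 55.8 and 69.0 CPM in T NC nodes, and overlapped. Olfm4, a granule protein of a subset of neutrophils, had 0.494, 0.203 and 0.532 CPM in T NDE nodes, against 2.33, 1.71 and 6.57 CPM in T NC nodes. Its log2 fold change of -3.08 ± 0.53 (SE) was the largest in size on the list, at levels below 1 CPM in the T NDE nodes. Chil3, a chitinase-like protein with close copies, had 10.3, 7.96 and 14.5 CPM in T NDE nodes, against 20.5, 23.8 and 22.4 CPM in T NC nodes.

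Cytoplasmic and surface genes of neutrophils were mixed. S100a9, a subunit of calprotectin, had 76.9, 48.4 and 55.0 CPM in T NDE nodes, against 82.8, 111 and 143 CPM in T NC nodes, and its partner S100a8 had a log2 fold change of -0.90 ± 0.32 (SE). Cd177, a surface protein, had 6.64, 4.97 and 4.83 CPM in T NDE nodes, against 7.57, 12.8 and 14.0 CPM in T NC nodes, without overlap. Cxcr2, the receptor for neutrophil-attracting chemokines, had a log2 fold change of 0.08 ± 0.11 (SE), and Csf3r, the G-CSF receptor, 0.10 ± 0.23 (SE), both with overlap. Ly6g, the gene behind the usual surface marker, was near 1 CPM, with 1.10, 0.710 and 0.483 CPM in T NDE nodes, against 1.19, 1.25 and 1.13 CPM in T NC nodes. In tumour-free mice the list median was 0.65 for NT NDE over NT NC, the opposite sign. That median includes NT NC replicates 2 and 3, which carried salivary transcripts. The adjusted interaction p was 0.462 for Lcn2 and 0.501 for Cd177 by edgeR's quasi-likelihood test, so the difference between the settings did not pass.

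The monocyte and inflammatory lists had negative medians, smaller in size than that of the neutrophil list. The 10 monocyte genes had a median of -0.26, with 2 wholly lower, against 4.60% of all genes; it was -0.39 without T NDE replicate 3 and -0.10 without T NC replicate 1. Ly6c2, the marker of inflammatory monocytes, had 55.4, 58.7 and 62.9 CPM in T NDE nodes, against 94.0, 71.3 and 82.8 CPM in T NC nodes, without overlap; the near-identical Ly6c1 may share its reads. Ccr2, the receptor that brings monocytes out of marrow, had 82.5, 54.6 and 76.5 CPM in T NDE nodes, against 79.9, 50.7 and 62.9 CPM in T NC nodes, with overlap. Ccl2, its main ligand, had 2.30, 3.65 and 2.18 CPM in T NDE nodes, against 6.05, 6.74 and 10.5 CPM in T NC nodes. T NDE over T NC gave a log2 fold change of -1.51 ± 0.32 (SE), and the adjusted p was 0.359 by edgeR's quasi-likelihood test and 0.00671 by DESeq2. The T NDE nodes were all below 4 CPM and the T NC nodes all above 6. Ccl7, a related ligand, had 3.84, 3.50 and 4.11 CPM in T NDE nodes, against 7.90, 4.57 and 11.5 CPM in T NC nodes, also apart. Il1b and Tnf overlapped, with log2 fold changes of -0.37 ± 0.36 (SE) and 0.00 ± 0.17 (SE). Il10, an anti-inflammatory cytokine, had 0.768, 0.761 and 0.870 CPM in T NDE nodes, against 1.47, 1.48 and 1.72 CPM in T NC nodes, with the groups apart at low levels. The inflammatory list of 14 had a median of -0.34, with 3 wholly lower, against 4.60% of all genes. Without T NDE replicate 3 the median was -0.62, with 7 wholly lower, against 10.6% of all genes in that fit.

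Collagens and other matrix genes were lower in T NDE nodes. In a node they form the conduits and capsule, laid down by fibroblastic cells. Of the 25 tested, 22 had negative values, with a median of -0.39. Every T NDE node lay below every T NC node in 11, and in 21 when T NDE replicate 3 was left out, against 4.60% and 10.6% of all genes. Without that library the median was -0.50. T NC replicate 1 was the highest of the 6 nodes for 19 of 25, and without it the median was -0.27. None passed edgeR's quasi-likelihood test; DESeq2 called 2 lower, against 0.122% of all genes.

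Col1a1, a chain of the main fibrillar collagen, had 85.3, 93.1 and 111 CPM in T NDE nodes, against 145, 98.8 and 145 CPM in T NC nodes, with overlap between T NDE replicate 3 and T NC replicate 2. Col3a1, a fibrillar collagen of reticular fibres, had 168, 165 and 224 CPM in T NDE nodes, against 308, 219 and 316 CPM in T NC nodes. This is a log2 fold change of -0.59 ± 0.17 (SE) and it overlapped only at the same pair of nodes. Col4a1, of basement membranes, had 199, 207 and 189.7 CPM in T NDE nodes, against 292, 227 and 262 CPM in T NC nodes. The groups were apart. Sparc, a collagen-binding protein, had 200.2, 227 and 251 CPM in T NDE nodes, against 324, 277 and 316 CPM in T NC nodes, a log2 fold change of -0.44 ± 0.11 (SE). Fn1, fibronectin, had 137, 129.7 and 127 CPM in T NDE nodes, against 275, 173 and 163 CPM in T NC nodes, with T NC replicate 1 far above; without that node its log2 fold change was -0.35, against -0.63 with it. Loxl1, an enzyme that cross-links elastin, had 4.06, 3.65 and 3.48 CPM in T NDE nodes, against 9.04, 4.34 and 5.15 CPM in T NC nodes. The 3 members with values at or above 0 were Col15a1 at 0.18, Sparcl1 at 0.30 and Lox at 0.00, all with overlap. In tumour-free mice the list had a median of 0.00 for NT NDE over NT NC, and the adjusted interaction p of Sparc was 0.622 by edgeR's quasi-likelihood test.

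Other stromal genes were mixed. Pdpn, podoplanin, found on fibroblastic reticular and lymphatic endothelial cells, had 7.95, 6.14 and 7.20 CPM in T NDE nodes, against 12.4, 10.5 and 9.53 CPM in T NC nodes. The fitted log2 fold change was -0.61 ± 0.14 (SE) and its adjusted p 0.447 by edgeR's quasi-likelihood test, with the groups apart. Fstl1, a secreted glycoprotein of fibroblasts, had 52.1, 60.9 and 60.9 CPM in T NDE nodes, against 86.5, 77.8 and 73.8 CPM in T NC nodes, also apart. Serping1, the inhibitor of complement C1, had 126, 133 and 147 CPM in T NDE nodes, against 230.0, 162 and 165 CPM in T NC nodes. The 16 complement genes had a median of -0.16, with 1 wholly higher and 3 wholly lower, against 4.55% and 4.60% of all genes, and medians of -0.29 without T NDE replicate 3 and -0.065 without T NC replicate 1. Pdgfra and Pdgfrb, receptors on fibroblasts and pericytes, had log2 fold changes of -0.08 ± 0.15 (SE) and -0.22 ± 0.18 (SE), with overlap. Ccl21a, a chemokine that guides T cells and dendritic cells, had 11.5, 1.47 and 1.40 CPM in T NDE nodes, against 1.06, 0.924 and 1.18 CPM in T NC nodes. T NDE replicate 1 was far above the other nodes, and without it the log2 fold change was 0.44, against 2.17 with it; near-identical copies of this gene exist in the mouse genome. Lymphatic endothelial genes changed sign with T NDE replicate 3, with a median of 0.06 with it and -0.23 without it.

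**Figure D4:**
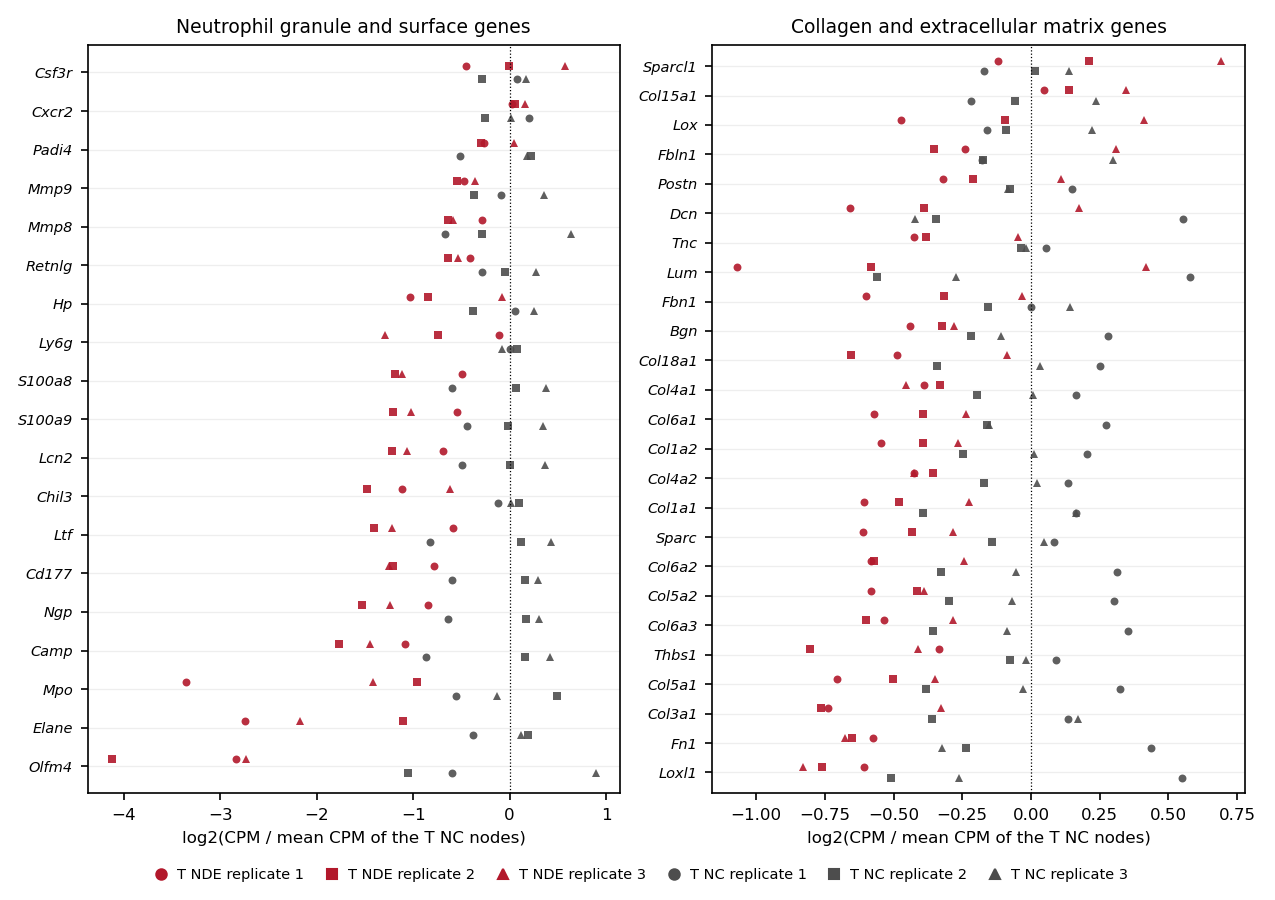
Rows are the 19 neutrophil genes (left) and the 25 collagen and matrix genes (right), sorted by log2 fold change; the x axis is log2 of CPM over the mean CPM of the T NC nodes, with separate scales. Red marks are T NDE nodes and grey marks T NC nodes; red marks lie wholly left of grey in 11 rows in each panel, and the grey circle, T NC replicate 1, is the rightmost mark in 19 of 25 rows on the right.

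Blood endothelial genes had the other direction. All 13 genes of blood and high endothelial venules, the vessels through which lymphocytes enter the node, had positive values, with a median of 0.20 and 3 wholly higher, against 4.55% of all genes. T NDE replicate 3 was the highest node for 8 of the 13, and without it the median was 0.11, with 3 wholly higher, against 10.1% of all genes in that fit. Flt1, a VEGF receptor (chr5:147561604-147726011, minus strand), had 46.5, 46.5 and 56.1 CPM in T NDE nodes, against 27.4, 37.4 and 36.8 CPM in T NC nodes. On the log2 scale the difference was 0.56 ± 0.13 (SE) and its adjusted p 0.513 by edgeR's quasi-likelihood test, and 0.46 was its log2 fold change without T NDE replicate 3. Tek, the angiopoietin receptor, had 16.0, 20.2 and 23.1 CPM in T NDE nodes, against 15.4, 13.9 and 15.04 CPM in T NC nodes. Chst4, a sulfotransferase of high endothelial venules that builds the ligand of L-selectin, had 17.5, 21.2 and 20.1 CPM in T NDE nodes, against 13.8, 13.8 and 16.6 CPM in T NC nodes. In these 3 the groups were apart. Pecam1, a pan-endothelial gene, had 384, 398 and 398 CPM in T NDE nodes, against 375, 383 and 412 CPM in T NC nodes, with overlap.

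Lymphocyte genes had small values on the log2 scale. Cd6, a T cell co-receptor, had 116, 122 and 110.3 CPM in T NDE nodes, against 152, 150.2 and 137 CPM in T NC nodes, with a log2 fold change of -0.34 ± 0.09 (SE) and no overlap. Cd8b1 and Cd5 were also apart, at -0.25 and -0.30, while Cd3e overlapped at -0.06. Of the 16 T cell identity genes, 4 were wholly lower, against 4.60% of all genes, and T NDE replicate 3 was the lowest node for 13. Among the 13 cytotoxic and NK cell genes, with a median of -0.23, Nkg7, a granule protein, had 39.3, 43.7 and 40.4 CPM in T NDE nodes, against 49.8, 47.9 and 50.2 CPM in T NC nodes, apart, and Gzmb, granzyme B, had 6.47, 4.51 and 4.59 CPM in T NDE nodes, against 6.504, 3.23 and 10.7 CPM in T NC nodes, with overlap. Foxp3, the factor of regulatory T cells, had 25.6, 30.2 and 23.9 CPM in T NDE nodes, against 31.5, 29.3 and 27.5 CPM in T NC nodes, with overlap. Art2b, an ADP-ribosyltransferase of T cells, had 32.9, 32.3 and 32.4 CPM in T NDE nodes, against 42.3, 50.3 and 39.9 CPM in T NC nodes, with the T NDE nodes nearly equal and all below the T NC nodes. Slfn1, a Schlafen gene of quiescent T cells, had 61.0, 71.2 and 73.2 CPM in T NDE nodes, against 79.7, 95.8 and 97.3 CPM in T NC nodes, also apart.

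The 11 B cell identity genes had a median of 0.09, which was -0.050 without T NDE replicate 1 and 0.20 without T NDE replicate 3. Cr2, the complement receptor CD21 of B cells and follicular dendritic cells, was the 1 of 11 wholly higher, against 4.55% of all genes. It had 534, 478 and 418 CPM in T NDE nodes, against 319, 363 and 401 CPM in T NC nodes.

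Dividing-cell genes had small positive values. The 24 cell cycle and DNA replication genes had a median of 0.09, with 4 wholly higher, against 4.55% of all genes, and T NC replicate 3 the lowest node for 17; without that node the median was 0.028. Mki67, the proliferation antigen, had 325, 309 and 305 CPM in T NDE nodes, against 294, 266 and 235 CPM in T NC nodes, and Rrm2, a subunit of ribonucleotide reductase, had 72.4, 65.4 and 66.5 CPM in T NDE nodes, against 63.0, 59.6 and 52.5 CPM in T NC nodes. In both the groups were apart, with log2 fold changes of 0.24 ± 0.23 (SE) and 0.22 ± 0.24 (SE). The 13 dendritic cell genes had a median of -0.13, -0.078 without T NC replicate 1, and none apart. Among the 12 regulatory T cell and checkpoint genes, Tnfrsf18, which encodes GITR, had 25.6, 24.6 and 25.7 CPM in T NDE nodes, against 33.1, 30.3 and 28.5 CPM in T NC nodes, and Lag3, an inhibitory receptor, had 16.2, 16.2 and 14.2 CPM in T NDE nodes, against 19.0, 16.4 and 21.6 CPM in T NC nodes, both apart. Among the 17 genes of suppressive and metastatic niches, Arg1, an enzyme that breaks down arginine, had 0.274, 0.203 and 9.28 CPM in T NDE nodes, against 0.164, 0.139 and 0.118 CPM in T NC nodes, so that its log2 fold change of 4.47 was 0.71 without T NDE replicate 3.

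Several lists had positive medians that rested on T NDE replicate 3. The 6 erythrocyte genes had a median of 1.72, and 0.16 without that library. Hbb-bs, a beta globin chain, had 13.3, 17.8 and 127 CPM in T NDE nodes, against 13.8, 14.3 and 19.4 CPM in T NC nodes. The 8 adipocyte genes had a median of 0.57, and -1.21 without it. Adipoq, the fat cell hormone adiponectin, had 1.10, 0.254 and 4.64 CPM in T NDE nodes, against 1.15, 0.877 and 2.61 CPM in T NC nodes. The skin and tongue epithelium list, with 4 of 12 genes tested, had a median of 1.87, and -0.07 without it. The 10 sinus macrophage genes had a median of 0.14, and -0.25 without it, with T NDE replicate 3 the highest node for 7. The part of the salivary share in any of these values was not tested.

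Receptors for nerve signals and markers of nerve and tumour were also measured. The 11 tested neuropeptide and adrenergic receptors had a median of 0.03, and -0.11 without T NDE replicate 3, with 1 wholly lower in the fit of all libraries, against 4.60% of all genes. Calcrl, which forms the CGRP receptor, had 59.6, 63.6 and 68.7 CPM in T NDE nodes, against 67.5, 67.7 and 64.2 CPM in T NC nodes, with overlap. Its partner Ramp1 had 17.7, 18.9 and 19.7 CPM in T NDE nodes, against 24.1, 20.6 and 20.0 CPM in T NC nodes, narrowly apart, with a log2 fold change of -0.20 ± 0.13 (SE). Tacr1, the substance P receptor, had 3.62, 3.45 and 2.56 CPM in T NDE nodes, against 4.42, 4.02 and 3.55 CPM in T NC nodes, with overlap at 1 pair of nodes. Nociceptor cell bodies lie in ganglia outside the node, so these genes do not check the inhibition. The 12 Schwann cell and nerve fibre genes had a median of 0.15, with none apart; leaving out replicate 1 of T NC gave 0.098, and leaving out its replicate 2 gave 0.25. Sox10, shared by Schwann cells, melanocytes and salivary gland, was at or near 0 except in T NDE replicate 3, where it had 12.3 CPM. Of 11 melanocyte and melanoma genes 6 were tested. Pmel, a pigment granule protein, had 0.933, 0.862 and 0.629 CPM in T NDE nodes, against 0.532, 0.739 and 1.01 CPM in T NC nodes. Tyr, tyrosinase, had 0.329, 0.406 and 0.967 CPM in T NDE nodes, against 0.286, 0.508 and 0.414 CPM in T NC nodes. Both were near or below 1 CPM, and the groups overlapped. Gpnmb, also made by macrophages, was the 1 of 6 wholly lower, against 4.60% of all genes. It had 3.13, 3.30 and 2.27 CPM in T NDE nodes, against 7.81, 4.71 and 3.67 CPM in T NC nodes.

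**Figure D5:**
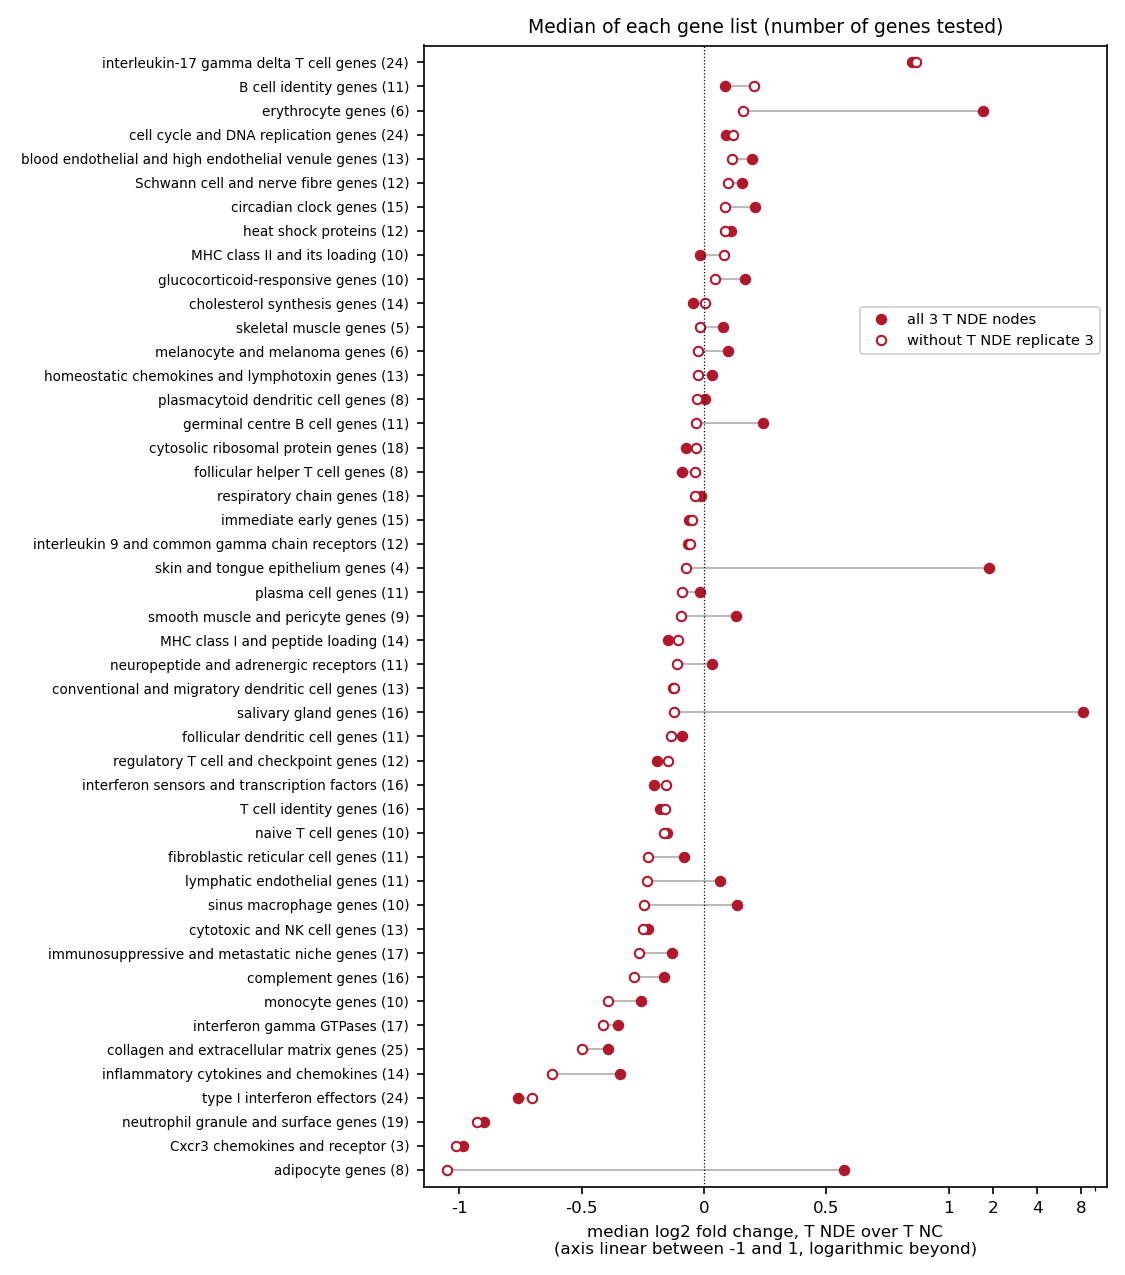
Each row is 1 of 47 gene lists with the number of its genes tested; the x axis is the median log2 fold change of T NDE over T NC, from all libraries (filled) and without T NDE replicate 3 (open). The interleukin-17 gamma delta list is at 0.85 and 0.87, while the salivary, erythrocyte, skin and adipocyte lists move far between the marks.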

How the data were processed

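RNA-seq of whole tumour-draining lymph nodes gave 12 libraries, 3 per group. Total RNA was taken with Trizol and mRNA libraries made by Illumina protocols, per the labels' protocols. Reads were aligned with HISAT2 2.0 to mm10, per the submitters' processing notes. The authors deposited raw counts per gene for each library; the counter, annotation and strand setting were not stated in any source used here. Among 55487 genes, 346 identifiers had no symbol and held 0.0404% to 0.0548% of counts. Genes passing edgeR's filterByExpr (minimum count 10) were tested with edgeR 4.0.16 (TMM scaling, quasi-likelihood test, R 4.3.3) in 1 fit over all 12 libraries, so the 4 groups share the spread; p-values were adjusted by Benjamini-Hochberg at 0.05. DESeq2 1.42.0 and limma-voom (limma 3.58.1) were alternatives, with other scalings, filters, sample sets and each replicate left out. Two-sided exact permutation tests were not used, since 3 against 3 cannot go below p = 0.1. Scripts were tested on simulated data. Replicate pairs within T NDE and within T NC all differed by more than sampling noise; other pairs were not compared. The rule names the 15 genes each way with the smallest p (mean of at least 1 CPM, no receptor segments or predicted genes) and, for each list, the first 3 tested members and the 3 with the smallest p. Others, among them Trdc, Cd163l1, Irf7, Isg15, Elane and Mpo, were named after their values were seen; some genes are not reported here. The groups compared, the 47 gene lists and the tests were chosen with earlier results of these data known. Positions and exon overlaps come from GENCODE M21 and promoters from RefSeq.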

Additional observations from a re-analysis of the deposited data

How the results depend on the processing

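The count of 0 genes past the threshold became 12 with no filter on low counts (30719 genes tested), 44 with DESeq2's Wald test and 1 with the salivary libraries left out, which was Chil3, lower in T NDE nodes. It was 0 with DESeq2 size factors, upper-quartile factors, a filter of 1 CPM in 3 libraries, limma-voom, the 6 libraries alone, the Bpifa2 covariate, and with antigen receptor, immunoglobulin and salivary gland genes left out. Leaving out 1 replicate gave 0 to 1, the 1 being Ighv1-74 without T NC replicate 2. Deviations of same-numbered T NDE and T NC samples from their group means had correlations of -0.12, -0.03 and -0.01. With so few samples these values cannot exclude that same-numbered samples shared a step of the work. With the replicate block the count was 0 and the smallest adjusted p 0.0676 by edgeR's quasi-likelihood test. With fewer libraries, groups separate more readily: genes wholly higher numbered 1463 to 1860 with 1 replicate left out and 1919 without the salivary libraries, and genes wholly lower 1457 to 1911 and 1870. Over the settings other than leaving out 1 replicate, the lowest counts were 628 wholly higher and 748 wholly lower. These counts do not depend on the test and were not recomputed for other tests.

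With the salivary libraries left out, list medians were -0.24 for sinus macrophage, -0.14 for regulatory T cell, -0.23 for lymphatic endothelial, -0.093 for smooth muscle, -0.65 for inflammatory, 0.090 for circadian, 0.029 for salivary, -0.012 for skeletal muscle, -1.20 for adipocyte, -0.070 for skin and 0.16 for erythrocyte genes. With the Bpifa2 covariate they were -0.18 for lymphatic endothelial, -0.59 for inflammatory, 0.30 for salivary, -0.020 for skeletal muscle and -0.058 for skin genes. With limma-voom they were 2.95 for salivary and 0.29 for skin genes, and with the 6 libraries alone 0.58 for skin genes. With antigen receptor genes left out, the gamma delta list had 0.48, since the receptor genes left it. With 1 replicate left out, medians ran from -0.25 to 0.28 for sinus macrophage, -0.24 to -0.13 for regulatory T cell, -0.23 to 0.26 for lymphatic endothelial, -0.10 to 0.22 for smooth muscle, -0.62 to -0.24 for inflammatory, 0.087 to 0.29 for circadian, -0.12 to 8.81 for salivary, -0.10 to 0.31 for skeletal muscle, -1.21 to 1.15 for adipocyte, -0.073 to 3.73 for skin and 0.16 to 2.16 for erythrocyte genes. The causes of these shifts were not tested. The medians that lead the text kept their sign with each replicate left out: 0.71 to 1.01 for gamma delta, -0.89 to -0.38 for type I interferon, -0.45 to -0.21 for GTPase, -1.12 to -0.69 for neutrophil and -0.50 to -0.27 for matrix genes. For the 128 genes named with values, 64 of 2160 fold changes under other settings had the other sign, in 22 genes, and none of those passed the threshold. Counts near 1 CPM, as for Tcrg-V6 and Olfm4, rest on few reads.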

Other observations

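Antigen receptor segments were measured in the same nodes. Of 92 immunoglobulin heavy chain variable segments (Ighv), 61 had a negative log2 fold change of T NDE over T NC, with a median of -0.40, and in 13 every T NDE node lay below every T NC node, against 4.60% of all genes. The 92 kappa chain segments (Igkv) had a median of -0.20, with 1 wholly higher and 3 wholly lower, against 4.55% and 4.60% of all genes. Heavy chain constant genes, 8 of them, had a median of -0.17. Each segment is used by the clones a mouse happens to hold and shares sequence with its relatives, so counts may be divided between segments.

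Of 20 T cell receptor beta variable segments (Trbv), 19 had negative values, with a median of -0.27 and 5 wholly lower, against 4.60% of all genes. Of 50 alpha segments (Trav), 41 did, with a median of -0.22 and 4 wholly lower, against the same share. The 12 tested gamma and delta receptor genes, which include the 6 on the gamma delta list, had a median of 1.41 and 8 wholly higher, against 4.55% of all genes, and 1.51 as the median without T NDE replicate 3. Of 12 mitochondrially encoded protein genes, 11 had positive values, with a median of 0.19 and 3 wholly higher, against 4.55% of all genes, and 0.10 as the median without T NDE replicate 3. The cytosolic ribosomal protein genes had a median of -0.07, with T NDE replicate 3 the lowest node for 17 of 18. With all libraries, none of these genes passed edgeR's quasi-likelihood test.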
